A study of Homo sapiens with 13 samples.

Results

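NEUROG2-induced human neurons were compared late against early in culture in 2 sequencing runs: in the first, doxycycline was present until harvest, and in the second it was removed after 6 days. These 6 libraries, of 13 in the study, were chosen by their labels and by no measured value. The cells are H9, an established human embryonic stem cell line carrying a doxycycline-inducible human NEUROG2, which the series describes as turning into excitatory neurons that no longer divide. In the first run, 1 library came from cells with doxycycline at 1 µg/ml for 5 days and 1 from cells with it for 11 days. In the second run, 2 libraries came from cells harvested on day 6 with doxycycline for all 6 days. The other 2 came from cells that had the same 6 days of doxycycline and then 6 days of medium without it, harvested on day 12. None of the 6 libraries received FGF2, the growth factor studied elsewhere in the series. All cultures grew on matrigel, in E8 stem cell medium for the first 2 days and then in the neural medium 3N, and each library was made from 1 well of a six-well plate. The titles call the line hES-N1 in the first run and hES-N2G1 or hES-N2G2 in the second, whereas every source name reads hES-N1. Day 12 is taken from the titles, since the descriptions of those 2 libraries list 6 days of growth. Nothing states that the numbered libraries came from separate cultures. The p-values for the second run therefore measure a spread between libraries of a group that may be technical. That spread was estimated over all 8 libraries of the run, including those with FGF2. Run, line label and harvest days differ together between the 2 comparisons and cannot be told apart from the doxycycline schedule. Within the second run, withdrawal and the 6 further days of culture cannot be told apart either.

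NEUROG2 is a proneural transcription factor of the basic helix-loop-helix class. It pairs with E proteins, binds short E-box sites in DNA and switches on further proneural factors, such as NEUROD and NHLH genes, together with Notch ligands, while precursor cells leave the cell cycle. In the developing cortex these factors act in a wave: NEUROG2 and its direct targets are expressed in progenitors and newborn neurons and are shut down as neurons mature and build synapses. EOMES, a T-box factor, marks the intermediate progenitors of that cortical sequence. Doxycycline keeps an inducible copy of such a gene switched on for as long as it is present.

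The promoters of 3 genes are shown because they carry E-boxes of the kind bound by NEUROG2 and because the genes stand for the 2 patterns described below: NHLH1 and NEUROD4 were lower late in both runs, and EOMES was higher late in the second run with little difference in the first. The windows are RefSeq promoters on GRCh38.p14, 250 bases before to 50 bases after the start of the gene in RefSeq, read 5′ to 3′ on the gene's strand, with the E-box in capitals. NHLH1 lies at chr1:160366821-160367120 on the plus strand, NEUROD4 at chr12:55019724-55020023 on the plus strand and EOMES at chr3:27722274-27722573 on the minus strand. The RefSeq start of EOMES lies inside the span that the Ensembl annotation gives this gene, so its window is not upstream of that span.
NHLH1: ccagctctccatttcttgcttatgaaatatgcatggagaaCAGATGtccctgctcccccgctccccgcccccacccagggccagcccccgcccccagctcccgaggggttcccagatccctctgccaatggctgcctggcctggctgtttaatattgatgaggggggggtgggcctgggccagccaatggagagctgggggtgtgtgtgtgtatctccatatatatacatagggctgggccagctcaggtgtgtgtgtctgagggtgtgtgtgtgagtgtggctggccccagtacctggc
NEUROD4: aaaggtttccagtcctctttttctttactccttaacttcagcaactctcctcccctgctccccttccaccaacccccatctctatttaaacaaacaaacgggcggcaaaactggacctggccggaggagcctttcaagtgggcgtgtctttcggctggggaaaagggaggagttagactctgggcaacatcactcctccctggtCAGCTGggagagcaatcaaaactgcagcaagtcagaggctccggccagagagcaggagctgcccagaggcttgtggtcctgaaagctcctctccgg
EOMES: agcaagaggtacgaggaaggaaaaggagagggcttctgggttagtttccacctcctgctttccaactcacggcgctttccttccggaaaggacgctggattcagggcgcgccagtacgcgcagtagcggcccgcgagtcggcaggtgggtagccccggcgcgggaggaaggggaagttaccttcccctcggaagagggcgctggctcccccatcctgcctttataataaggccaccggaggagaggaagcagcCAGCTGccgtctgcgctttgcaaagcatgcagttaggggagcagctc
The match in NHLH1 is CAGATG, 210 bases before the start. The match in NEUROD4 is CAGCTG, 46 bases before the start, and the match in EOMES is CAGCTG at base 4 after it. Both strands were searched for CAGATG, whose reverse complement is CATCTG, and for CAGCTG, which reads the same on both strands. Of 35116 promoter windows of this length, 29.8% held at least 1 match. The share was 37.5% of 120 windows of genes lower late in both runs and 25.8% of 66 windows of genes higher late in both. It was 31.7% of 426 windows and 30.4% of 273 windows of the genes higher and lower late in the second run alone by the rule given below. A match is a description of the letters and not of binding.

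The libraries held 47159475 counted reads on day 5 and 35001512 on day 11 in the first run, and 22802501 to 24093424 in the second. Genes were matched between the runs by Ensembl identifier without version, which paired 60415 genes, of which 39199 had a count in at least 1 of the 6 libraries. Levels are given as CPM, counts per 1000000 reads scaled by TMM within each run, so a level set across the runs compares values that were normalised separately. The first run has no replicates, and its differences carry no test. The second run was tested with edgeR's quasi-likelihood test with Benjamini-Hochberg adjustment, and every adjusted p below is from that test.

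The induced gene itself separated the schedules. With continued doxycycline, NEUROG2 (chromosome 4, 112513516 to 112516172, GRCh38) had a level of 1564 CPM on day 5 and 1018 CPM on day 11. The second run had 7664 and 7540 CPM on day 6, and then 54.6 and 49.4 CPM on day 12. Day 12 lay far below day 6 in both libraries, while the day-11 library kept most of the day-5 level. The day-11 level was 0.651 of the day-5 level (95% exact binomial counting interval 0.642 to 0.659, which like all such intervals here covers counting error only). After withdrawal NEUROG2 fell by 7.20 on the log2 scale (SE 0.089, adjusted p = 1.2e-16). This SE and that of NHLH1 below are approximations, the log2 change divided by the square root of the test's F statistic. The second run also started higher. NEUROG2 was at 1.34 and 6.26 CPM on days 5 and 11 of the cultures of the first run that had no doxycycline, below the day-12 levels of the second run, which were normalised separately. The coordinates are those of the endogenous gene, and its reads cannot be told apart here from those of the inducible copy.

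NHLH1 (chromosome 1, 160367067 to 160372848), a helix-loop-helix factor of newborn neurons, was lower late under both schedules. The first run gave 856 CPM on day 5 and 78.0 CPM on day 11. The second gave 2028 and 2065 CPM on day 6, then 16.4 and 15.3 CPM on day 12. The day-11 level was 0.0911 of the day-5 level (counting interval 0.0875 to 0.0948), while NEUROG2 was at 1018 CPM. After withdrawal NHLH1 fell by 7.02 on the log2 scale (SE 0.10, adjusted p = 6.6e-16). In bulk libraries such as these, fewer cells expressing a gene and less of its RNA per cell cannot be told apart.

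EOMES (chromosome 3, 27715949 to 27722711) appeared in the day-12 libraries of the second run. It was at 0.169 and 0.242 CPM on days 5 and 11 with continued doxycycline, from 7 and 8 counts. The day-6 libraries had 0.0855 and 0.0429 CPM, from 3 counts in all, and the day-12 libraries 82.0 and 75.1 CPM. The day-12 to day-6 ratio was 1225 (counting interval 419 to 5942), and edgeR called the rise (adjusted p = 4.1e-14). TBR1, the T-box factor that follows EOMES in cortical neurons, was at 0.171 to 0.387 CPM in all 6 libraries and was not among the genes tested. Of 26 cortical and forebrain genes 19 reached 1 CPM, with summed levels of 493 and 268 CPM in the first run and 972, 931, 422 and 420 CPM in the second. NEUROD6 and DLX5 of that list were at 0 to 0.0855 CPM in the 6 libraries.

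**Figure D1:**
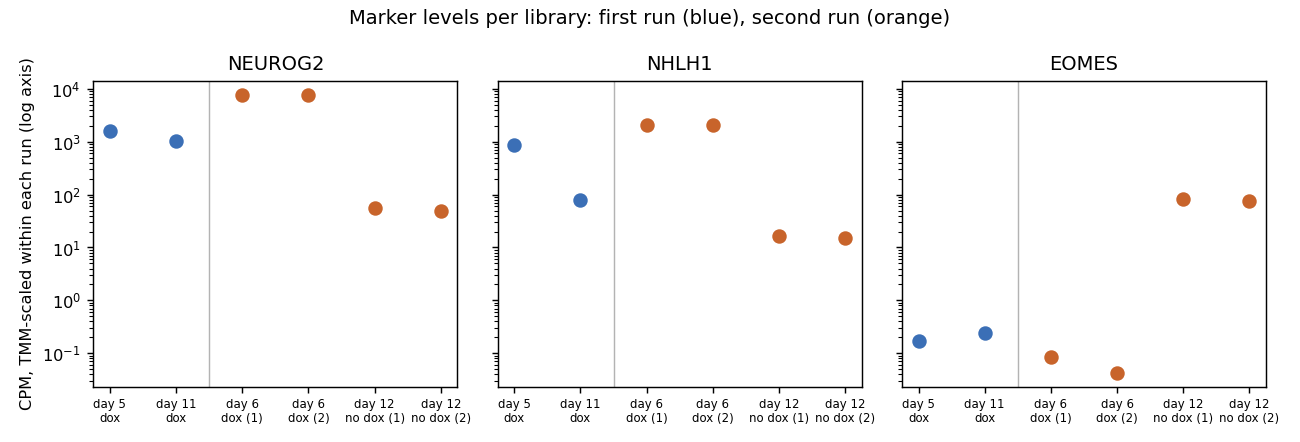
Levels of NEUROG2, NHLH1 and EOMES in each of the 6 libraries, in CPM scaled within each run, on a log axis; blue points are the first run with doxycycline until harvest and orange points the second run, with doxycycline until day 6. NEUROG2 was at 1018 CPM on day 11 under continued doxycycline and reached 49.4 and 54.6 CPM after withdrawal, NHLH1 was lower late in both runs, and EOMES was above 1 CPM in the 2 day-12 libraries alone among these 6.

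Far fewer genes differed between day 5 and day 11 than between day 6 and day 12. A gene was counted as different in the first run when its log2 ratio, computed after adding 1 CPM to each level, was at least 4-fold and either library had at least 10 CPM. That held for 225 of 11462 genes (1.96%), with 85 higher (0.742%) and 140 lower (1.22%) on day 11. On the authors' own normalised values for that run the split was 62 higher and 219 lower, with a median log2 ratio over all genes of -0.39 in place of -0.07. In the second run edgeR called 12884 of 20122 genes (64.0%), 6388 higher (31.7%) and 6496 lower (32.3%). To use the same size threshold in both runs, the 4-fold and 10 CPM rule was added to the call, which left 1110 of 11054 genes, 555 higher (5.02%) and 555 lower (5.02%). The log2 ratios of the 10477 genes at 10 CPM or more in both runs had a standard deviation of 0.62 in the first run and 1.17 in the second. Their Pearson correlation across genes was 0.77, a description over genes measured in the same libraries, with no p.

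The 12039 genes at 10 CPM or more in either run were then sorted by both changes. A gene was shared when it was different in both runs in the same direction. It was assigned to a single run when it was different there and stayed within 2-fold in the other run, and it was opposite when it was different in both with opposite signs. Shared genes numbered 59 higher (0.49%) and 111 lower (0.922%) late. To the first run alone this rule assigned 5 genes higher (0.0415%) and 6 lower (0.0498%), and to the second run alone 307 higher (2.55%) and 230 lower (1.91%). On the authors' normalised values the first-run groups held 3 higher and 24 lower. PENK was the single opposite gene. The genes different in both runs, 171 with PENK, were 76.0% of those different in the first run and 15.4% of those different in the second. Among the shared genes, 53 of 59 higher and 97 of 111 lower had the larger log2 ratio in the second run. A further 445 genes were different in 1 run and over 2-fold apart in the other without meeting its rule, and 440 of them had the same direction in both. Whether a gene's change differs between the runs was not tested, since the first run has 1 library per day.

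**Figure D2:**
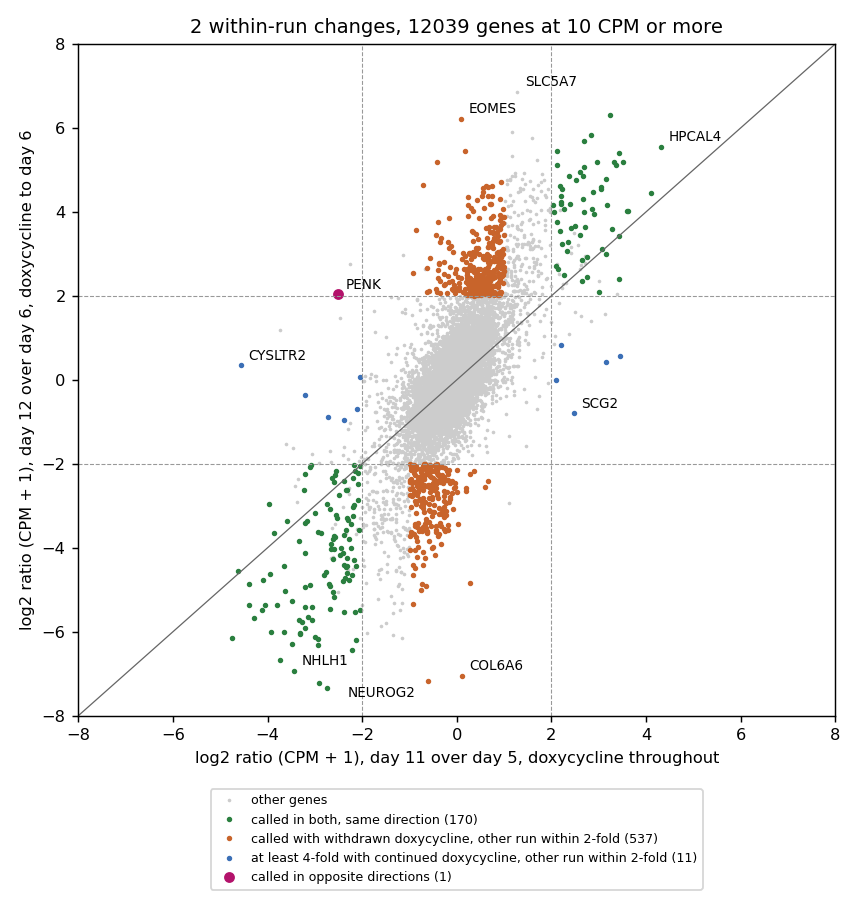
Each point is a gene at 10 CPM or more in either run, with its log2 ratio of day 11 to day 5 under continued doxycycline on the x axis and of day 12 to day 6 with withdrawn doxycycline on the y axis; dashed lines mark 4-fold and the diagonal marks equal ratios. Genes assigned to the second run lie further from 0 on the y axis than on the x axis by the rule that colours them, and most shared genes do so as well. PENK is the coloured point beyond the dashed lines of both axes in the upper left.

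Proneural factors were lower late in both runs, more so after withdrawal. Of the 36 genes of the NEUROG2 downstream proneural list, 33 had at least 1 CPM in a library, with a median log2 ratio of -0.85 in the first run and -1.43 in the second, against -0.05 and -0.01 over all 18986 such genes. In the first run 9 were at least 4-fold lower and 0 higher. In the second run 15 fell and 2 rose by that size, and edgeR alone called 20 lower and 7 higher of 33 tested. NEUROG2 itself, the induced gene, is on this list and is counted among the 15 and the 20. Over all genes at the minimum, 1.22% were lower and 0.742% higher by size in the first run, and 5.02% each way in the second. By edgeR alone 32.3% of all genes tested were lower and 31.7% higher. NEUROD4, a helix-loop-helix factor of early neurons, went from 78.0 CPM on day 5 to 3.06 CPM on day 11, and from 522 and 514 to 9.47 and 8.84 CPM after withdrawal. NEUROD1, another member of that family, was at 24.9 and then 0.848 CPM in the first run, and at 304 and 295 against 6.07 and 6.49 CPM in the second. For both factors the late libraries of either run were far below the early ones. The zinc finger factors INSM1 and ST18 and the homologues NEUROD2 and INSM2 were shared lower genes as well.

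Part of the proneural list was lower in the second run while the first run showed little difference. HES6, an antagonist of HES1, was at 146 and 92.2 CPM on days 5 and 11. After withdrawal it fell from 914 and 900 CPM to 86.5 and 85.7 CPM (adjusted p = 2.1e-13). CBFA2T2, a corepressor, was at 48.7 and 63.0 CPM in the first run and fell from 356 and 328 to 76.5 and 72.8 CPM in the second (adjusted p = 7.9e-11). For HES6, both levels of the first run were nearer to the day-12 than to the day-6 level of the second. The member that rose most after EOMES was ONECUT3, a homeodomain factor of postmitotic neurons. It was at 362 and 600 CPM in the first run and rose from 48.5 and 53.7 to 927 and 956 CPM in the second (adjusted p = 7.9e-15). The LIM homeodomain factor ISL1 was at 420 and 479 CPM in the first run, and at 129 and 157 CPM on day 6 against 349 and 381 CPM on day 12 (adjusted p = 2.7e-08), below 4-fold.

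Notch pathway genes followed a similar course, though DLL3 is on both this list and the proneural list. The list of 25 had a median log2 ratio of -0.30 in the first run and -1.34 in the second. In it 4 genes were at least 4-fold lower in the first run, against 1.22% of all genes at the minimum. In the second run 8 were lower and 2 higher by that size, where the share over all genes was 5.02% each way. By edgeR alone 15 were lower and 5 higher, against 32.3% and 31.7% of all genes tested. Of the ligands, DLL3 was at 386 CPM on day 5 and 40.9 CPM on day 11, and fell from 1675 and 1539 to 25.3 and 26.2 CPM in the second run (adjusted p = 1.5e-15). DLL1, also a target of proneural factors, was at 9.97 to 12.8 CPM in all 6 libraries. The ranges of DLL1 on early and late days overlapped, and edgeR gave an adjusted p of 0.57. The receptor NOTCH1 was at 17.4 and then 1.39 CPM in the first run, and at 98.1 and 79.4 CPM on day 6 against 0.364 and 0.128 CPM on day 12 (adjusted p = 4.1e-12). The glycosyltransferases MFNG and LFNG, which modify Notch receptors, were shared lower genes. Among the target genes, HES5 was at 1.33 and 0.727 CPM in the first run, and fell from 16.1 and 13.3 to 0.243 and 0.299 CPM in the second (adjusted p = 1.1e-11). DTX4, an E3 ligase of the pathway, went the other way, at 159 and 237 CPM in the first run and rising from 12.9 in each day-6 library to 235 and 239 CPM (adjusted p = 9.8e-15).

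The cell cycle genes showed the widest gap between the runs of all lists. Their median log2 ratio over 38 genes was -0.66 in the first run and -3.43 in the second. Of the 38, 0 were 4-fold different in the first run, whereas 25 fell by that size in the second, where the share over all genes was 5.02%. By edgeR alone 37 were lower, against 32.3% of all genes. The list summed to 535 and 363 CPM on days 5 and 11, and to 2063 and 1851 CPM on day 6. Members under 10 CPM on both days of the first run could not be counted as different there, so the 0 and the 25 are not a like comparison. MKI67, the proliferation antigen, was at 11.9 CPM on day 5 and 4.09 CPM on day 11. On day 6 of the second run it was at 109 and 88.1 CPM, and on day 12 at 0.364 and 0.598 CPM (adjusted p = 1.2e-11). TOP2A, the topoisomerase of dividing cells, was at 19.0 and 7.97 CPM in the first run and fell from 171 and 146 to 0.850 and 1.62 CPM in the second (adjusted p = 1e-12). For both genes the day-6 libraries were the highest of the 6 and the day-12 libraries the lowest. UBE2C, CDC20, CCNB2 and BUB1, which act in mitosis, were among the genes assigned to the second run alone, with 2.88 CPM or less on day 11 and 28.9 to 50.5 CPM on day 6. Their day-5 levels, 3.60 to 4.45 CPM, were under the 10 CPM minimum, so the rule could not count them as different in the first run. Of 13 inhibitors of the cycle and related genes, 3 fell by 4-fold in the second run, CDKN2C, GAS1 and BTG2, and 0 rose.

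The stem cell list and the cortical and forebrain list had medians below 0 in both runs. Among the 18 pluripotency genes, 14 at 1 CPM or more had medians of -1.0 and -0.51. In that list 2 genes were 4-fold lower in the first run and 3 in the second, with 0 higher in either, and edgeR alone called 8 lower and 2 higher of 11 tested. The shares over all genes in the second run were 5.02% each way by call and size, and 32.3% lower and 31.7% higher by edgeR alone. In the first run 1.22% of all genes at the minimum were 4-fold lower and 0.742% higher. DPPA4 was at 65.8 CPM on day 5 and 4.27 CPM on day 11, and fell from 78.4 and 71.3 to 0.121 and 0.256 CPM in the second run (adjusted p = 3.1e-14). ZFP42 was at 43.7 and 5.94 CPM in the first run and fell from 50.9 and 64.5 to 0.445 and 0.214 CPM in the second (adjusted p = 5.5e-13). The core factor POU5F1 was at 5.03 and 5.54 CPM in the first run and at 0 to 0.0858 CPM in the second. ZIC2, a zinc finger factor of neural progenitors, was at 51.8 and then 2.64 CPM, and at 33.9 and 34.9 against 2.15 and 1.49 CPM (adjusted p = 3.3e-12). The 19 cortical and forebrain genes at 1 CPM or more had medians of -0.89 and -0.48. In the first run 4 were 4-fold lower, and in the second 4 were lower and 1 higher, with 10 lower and 5 higher of 17 tested by edgeR alone. The 5 higher of 17 were near the share of 31.7% over all genes. POU3F1, BHLHE22 and OTX2, on the list of cortical and forebrain genes, were shared lower genes too. CUX2 of that list was assigned to the second run, at 41.8 and 65.9 CPM in the first and rising from 12.1 and 11.3 to 75.1 and 73.9 CPM (adjusted p = 6.1e-12).

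Most genes of the neuronal function lists were higher on day 12 than on day 6, with smaller differences between day 5 and day 11. The 27 pan-neuronal genes had medians of -0.07 and 0.64, and edgeR called 19 higher and 6 lower in the second run. STMN2, which regulates axonal microtubules, differed little: 4019 and 3666 CPM in the first run, and 3045 and 3257 CPM against 4398 and 4384 CPM in the second (adjusted p = 5e-05). MAPT, which encodes tau, was at 727 and 1040 CPM in the first run and rose from 201 and 227 to 1157 and 1158 CPM in the second (adjusted p = 6.1e-13). The presynaptic list had medians of 0.30 and 1.31, with 11 of 36 genes rising 4-fold in the second run and 0 different in the first, and edgeR alone called 29 higher and 7 lower. Of all genes, 5.02% rose 4-fold in the second run, and edgeR alone called 31.7% higher and 32.3% lower. SV2A, a synaptic vesicle glycoprotein, was at 444 and 517 CPM in the first run and rose from 76.5 and 105 to 524 and 512 CPM in the second (adjusted p = 3.4e-11). The day-5 and day-11 levels of SV2A lay near the day-12 levels of the second run.

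Postsynaptic, voltage-gated channel and glutamatergic genes had medians of 0.51, 0.43 and 0.42 in the first run and 1.13, 1.35 and 1.27 in the second. Of 30, 45 and 29 tested in these lists, edgeR called 24, 33 and 22 higher, and 5 lower in each list, against 31.7% higher and 32.3% lower of all genes tested. The medians of 0.30 and 0.42 for presynaptic and glutamatergic genes in the first run became -0.01 and -0.04 on the authors' normalised values, so their direction in that run depends on the scaling. SCN2A, a sodium channel of axons, was at 27.3 CPM on day 5 and 122 CPM on day 11, and rose from 1.62 and 1.33 to 112 and 104 CPM in the second run (adjusted p = 9.6e-15). GRIA1, an AMPA receptor subunit, was at 1.67 and 15.1 CPM, and rose from 0.0427 and 0.0858 to 31.4 and 32.1 CPM (adjusted p = 1.2e-13). SHANK1, a scaffold of the postsynaptic density, was at 43.5 and 91.7 CPM, and rose from 1.58 and 1.20 to 66.8 and 60.9 CPM (adjusted p = 3.8e-13). All 3 genes were higher in the late library of each run. The vesicular glutamate transporters differed: SLC17A7 was at 169 and 68.7 CPM in the first run and fell from 513 and 516 to 51.3 and 50.8 CPM in the second (adjusted p = 2.1e-14). SLC17A6 was at 304 and 275 CPM in the first run and rose from 83.4 and 97.1 to 374 and 331 CPM in the second (adjusted p = 7.9e-11), just under 4-fold.

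GABAergic genes, mostly receptor subunits, had similar medians in both runs, 1.01 and 1.16 over 16 genes. GABRA2 was at 1.26 CPM on day 5 and 26.7 CPM on day 11, and rose from 0.256 and 0.901 to 24.7 CPM in each day-12 library (adjusted p = 4.5e-11). GABRA3 was at 37.9 and 167 CPM, and rose from 3.03 and 3.39 to 141 and 151 CPM (adjusted p = 1.6e-14). GAD1 and GAD2, the enzymes that make GABA, were at 0 to 0.636 CPM in all 6 libraries.

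Over the 15 cholinergic genes at 1 CPM or more the medians were -0.21 and 0.65. In the first run 2 of the list were 4-fold lower and 0 higher, against 1.22% and 0.742% of all genes at the minimum. In the second 4 were higher and 3 lower by that size, against 5.02% each way. By edgeR alone 10 were higher and 5 lower of 17 tested. EdgeR alone called 31.7% of all genes higher and 32.3% lower, and the 5 lower of 17 were near that share. The transporter of choline, SLC5A7, was at 128 and 312 CPM in the first run and rose from 0.726 and 0.858 to 191 and 225 CPM in the second (adjusted p = 1.7e-14). The synthetic enzyme CHAT was at 12.4 and 18.9 CPM in the first run and rose from 1.58 and 1.24 to 10.2 and 13.8 CPM (adjusted p = 2.2e-08). The receptor subunits CHRNA1 and CHRNA3 were lower late in both runs. CHRNA3, a ganglionic nicotinic subunit, was at 288 and then 46.6 CPM, and fell from 181 and 202 to 13.8 and 13.6 CPM (adjusted p = 4.4e-14).

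NTRK2, NTRK3 and RET encode receptors of neurotrophic factors. NTRK2, the receptor of brain-derived neurotrophic factor, was at 13.8 and 94.4 CPM, and rose from 0.983 and 0.472 to 88.4 and 86.6 CPM (adjusted p = 1.1e-13). The 3 late libraries all lay above the 3 early ones for NTRK2. NTRK3, the receptor of neurotrophin-3, was at 38.2 and 35.5 CPM in the first run, and rose from 12.7 and 10.2 to 29.4 and 29.3 CPM in the second (adjusted p = 1.6e-05). RET, the receptor of GDNF family ligands, was at 404 and 314 CPM in the first run and rose from 25.9 and 26.7 to 258 and 270 CPM in the second (adjusted p = 5.1e-14).

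Among the genes named by rank, the shared higher group was led by HPCAL4, a neuronal calcium sensor. It was at 0.629 CPM on day 5 and 31.6 CPM on day 11, and rose from 0.0427 and 0.0858 to 50.9 and 47.2 CPM in the second run (adjusted p = 7.1e-14; 3 counts on day 6). CALN1, a calmodulin-like protein, was at 5.03 and 102 CPM, and rose from 1.45 and 1.5 to 50.3 and 55.7 CPM (adjusted p = 3.4e-13). MET, the receptor of hepatocyte growth factor, was at 0.991 and 20.5 CPM, and rose from 0.256 and 0.343 to 53.3 and 54.6 CPM (adjusted p = 2e-13). KCNK9, PTPRT, CA10 and ADCY8 completed the group, a potassium channel, a receptor phosphatase, a carbonic anhydrase-related protein and an adenylyl cyclase. The shared lower group named by rank included ANO3, LDB3, NEUROD4, FLNC, GNG5 and SUSD2. FLNC, an actin crosslinker, was at 197 and 10.5 CPM, and fell from 301 and 297 to 6.03 and 5.38 CPM (adjusted p = 1e-14). Another gene overlaps 41.6% of the exon bases of GNG5, and the library kit does not keep strand, so reads of the pair cannot be told apart.

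Few genes were assigned to continued doxycycline alone, although the lower group of 6 became 24 on the authors' normalised values. SCG2, a granin of secretory vesicles, was at 13.0 CPM on day 5 and 76.5 CPM on day 11. Its second-run levels were 104 and 107 CPM on day 6 and 62.7 and 58.0 CPM on day 12, a fall of less than 2-fold (adjusted p = 1.3e-06). The other 4 of the higher group were PDIA2, HS3ST4, ARHGDIG and TRHDE, of which ARHGDIG has 23.9% of its exon bases overlapped by another gene. CYSLTR2, a leukotriene receptor, was at 29.9 and 0.303 CPM in the first run and at 0.855 to 2.11 CPM in the second (adjusted p = 0.17). VCAN, a matrix proteoglycan, was at 302 and 57.0 CPM in the first run and at 239 and 210 against 120 and 109 CPM in the second (adjusted p = 1.3e-05). These groups of 5 and 6 genes rest on 1 library per day.

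**Figure D3:**
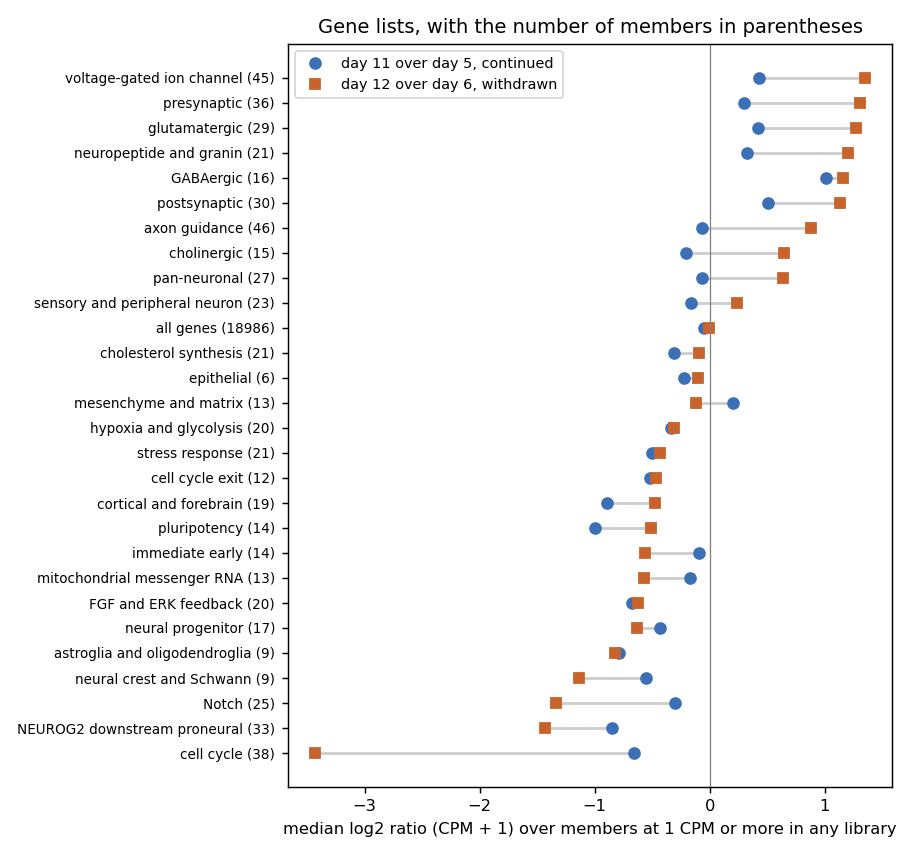
Median log2 ratio of each gene list in the first run (blue circles) and in the second (orange squares), over members with at least 1 CPM in any of the 6 libraries, whose number stands in parentheses. Cell cycle genes have the widest gap, -0.66 against -3.43, and neuronal function lists lie right of the medians for all genes in the second run.

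Genes that rose in the second run alone were mostly nearer to their day-12 than their day-6 level in the first run, already on day 5; for those that fell this depended on the minimum level. Each level of the first run was placed between the day-6 and day-12 means of the second run on the scale of log2(CPM + 1), with 0 at day 6 and 1 at day 12. This placing was chosen after the values were seen and sets levels of separately normalised runs against each other. The groups were formed from these same values, by a change of at least 4-fold in the second run and within 2-fold in the first. That rule keeps day 5 and day 11 close together on this scale, so the shares on 1 side on both days partly follow from it. Of the 307 genes that rose, 259 (84.4%) lay nearer to day 12 on both day 5 and day 11, 20 (6.5%) lay nearer to day 6 on both days and 24 (7.8%) moved from the day-6 side to the day-12 side. The median position was 0.73 on day 5 and 0.94 on day 11. Of the 230 genes that fell, 162 (70.4%) lay on the day-12 side on both days, 30 (13.0%) on the day-6 side on both days and 36 (15.7%) passed from the day-6 side to the day-12 side, with median positions of 0.63 and 0.84. Of the genes that fell, 125 were under 10 CPM on both days of the first run and passed the minimum through their day-6 level. Over the other 105, 48 (45.7%) lay on the day-12 side on both days, 29 (27.6%) on the day-6 side on both days and 27 (25.7%) passed to the day-12 side, with median positions of 0.49 and 0.76. For genes that fell, a minimum of 10 CPM in the first run favours the day-6 side, so neither share is free of the minimum. Of the genes that rose, 276 had 10 CPM or more in the first run, a minimum that favours the day-12 side there, and 249 of these (90.2%) lay on that side on both days. Over all genes, levels on day 6 and day 5 were at least 4-fold apart for 944 of 11468 genes (8.23%), and levels on day 12 and day 11 for 522 of 11151 (4.68%). The Pearson correlation of log2 levels across genes was 0.88 for the early days and 0.94 for the late days.

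Examples show both courses. ISLR2, an immunoglobulin-domain protein of axons, was at 918 and 506 CPM in the first run and rose from 30.9 and 42.8 to 420 and 471 CPM in the second (adjusted p = 8.5e-12). NLGN3, a postsynaptic adhesion protein, was at 53.9 and 79.6 CPM and rose from 2.35 and 2.49 to 81.3 and 79.8 CPM (adjusted p = 2.6e-14). On day 5 ISLR2 was above its day-12 levels, and NLGN3 lay between its day-6 and day-12 levels. COL6A6, a collagen chain, was at 0.290 and 0.394 CPM in the first run, and fell from 230 and 246 to 0.810 and 0.811 CPM in the second (adjusted p = 1.3e-13). It was high in the day-6 libraries alone among the 6.

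Some genes lay on the day-6 side on both days of the first run. Among the 20 that rose after withdrawal were EOMES, IRS4, LMO3, GBX2, PROX2, SERTM1 and CHRM3. IRS4, an adaptor of insulin receptor signalling, was at 3.46 and 4.03 CPM in the first run and rose from 0.0427 and 0.129 to 50.9 and 42.3 CPM in the second (adjusted p = 3.3e-13). GBX2, a homeobox factor of the anterior hindbrain, was at 1.52 and 3.94 CPM and rose from 1.79 and 0.986 to 39.9 and 38.6 CPM (adjusted p = 2.2e-12). LMO3, a LIM-domain cofactor, was at 26.8 and 32.0 CPM and rose from 7.09 and 8.54 to 168 and 147 CPM (adjusted p = 8.2e-14). In each of these the day-12 libraries were the highest of the 6. Among the 30 that fell were NEUROG2, GJA1, HPS1, PLCH2, COL1A1, MICAL1, CYFIP1 and CNN2. GJA1, a gap junction protein, was at 21.9 and 10.8 CPM in the first run and fell from 14.0 and 10.6 to 0.0405 and 0.0854 CPM in the second (adjusted p = 5.8e-09). PLCH2, a phospholipase C, was at 74.4 and 61.7 CPM and fell from 187 in each day-6 library to 15.3 and 14.9 CPM (adjusted p = 4.1e-14). CNN2, an actin-binding calponin, was at 48.8 and 42.4 CPM and fell from 50.2 and 50.5 to 8.34 and 9.35 CPM (adjusted p = 2.3e-11).

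**Figure D4:**
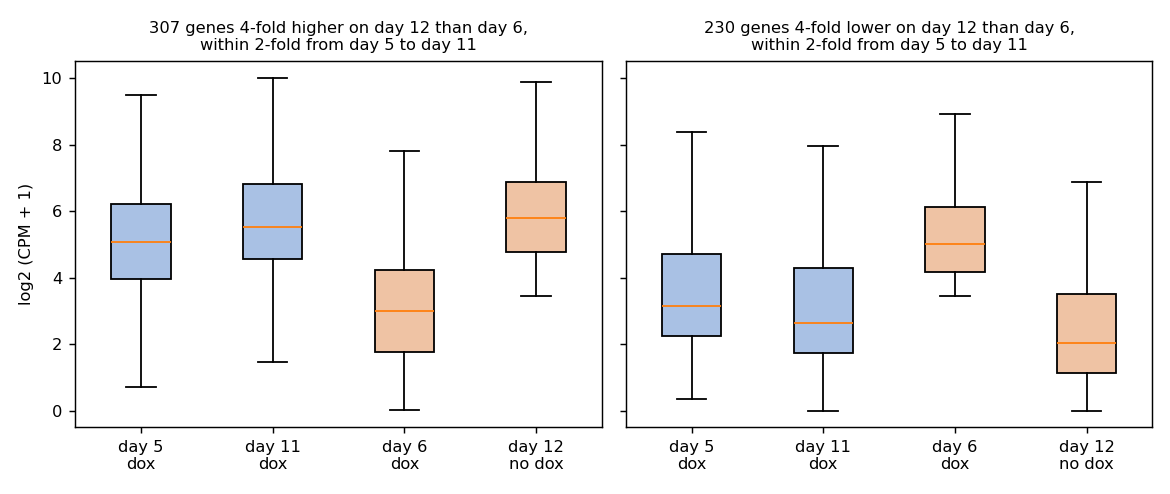
Levels, as log2(CPM + 1) within each run, of the 307 genes assigned to the second run as higher (left) and the 230 as lower (right); boxes span the quartiles, lines mark medians and whiskers reach the furthest gene within 1.5 times the box length, with genes beyond not drawn. The median lines of day 5 and day 11 lie nearer to day 12 than to day 6; on the right, 125 of the 230 genes were under 10 CPM in the first run. The rule that formed the groups keeps day 5 and day 11 within 2-fold of each other.

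In 6 genes the levels moved in opposite directions by over 2-fold in both runs and by 4-fold in at least 1 of them. PENK, which encodes the enkephalin precursor, was at 20.5 CPM on day 5 and 2.79 CPM on day 11, and rose from 3.50 and 3.73 to 17.0 and 19.0 CPM in the second run (adjusted p = 1.2e-09). Another gene overlaps 20.1% of the exon bases of PENK. SST, which encodes somatostatin, was at 33.9 and 1.61 CPM, and rose from 14.2 and 12.1 to 32.2 and 30.6 CPM (adjusted p = 6.4e-07), under 4-fold. PCP4, a calmodulin regulator, was at 66.7 and 13.1 CPM, and rose from 0.342 and 0.6 to 9.07 and 9.01 CPM (adjusted p = 6.2e-10). PRKG1, a cGMP-dependent kinase, was at 67.6 and 11.5 CPM, and rose from 14.3 and 10.7 to 36.9 and 35.9 CPM (adjusted p = 9.7e-08). ARHGAP36, at 52.0 and 23.0 CPM, rose from 0.855 and 0.558 to 12.3 and 12.7 CPM (adjusted p = 8.8e-11). The non-coding C20orf166-AS1 went the other way, at 0.242 and 1.67 CPM and falling from 12.8 and 12.5 to 0.769 and 0.811 CPM (adjusted p = 1.8e-10). These genes kept the sign of their first-run ratio on library totals and on the authors' normalised values. The log2 ratio of C20orf166-AS1 was 1.1 here but 0.92 on the authors' values, under 2-fold, so its place among these genes depends on the scaling. On the neuropeptide and granin list, 2 genes were 4-fold higher and 2 lower in the first run, against 0.742% and 1.22% of all genes at the minimum. In the second 5 were higher and 0 lower by that size, against 5.02% each way over all genes. By edgeR alone 15 were higher and 4 lower of 21 tested, against 31.7% and 32.3% of all genes. NTS, which encodes neurotensin, was at 6.82 and 49.5 CPM and rose from 14.7 and 11.6 to 205 and 246 CPM (adjusted p = 1.6e-12). GAL, which encodes galanin, was at 8.0 and 0.818 CPM, and fell from 5.26 and 5.32 to 0.121 and 0.128 CPM (adjusted p = 1.7e-09).

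**Figure D5:**
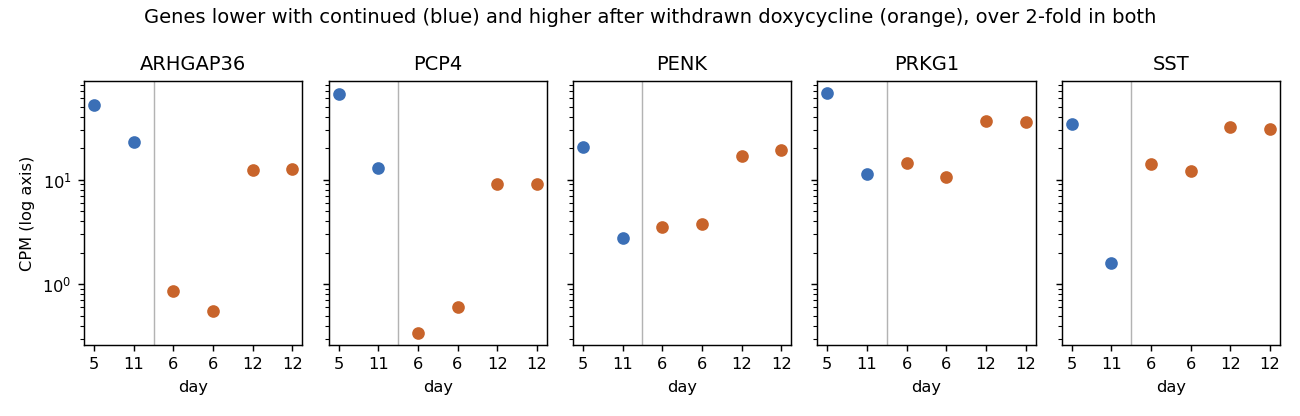
Levels in CPM, scaled within each run, on a log axis, of the 5 protein-coding genes that were lower late with continued doxycycline (blue) and higher late after withdrawal (orange) by over 2-fold in both runs and 4-fold in at least 1; each point is a library. The day-5 library is above the day-11 library in every panel, and both day-12 libraries are above both day-6 libraries.

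Markers of other cell types were followed as whole lists. Of 13 epithelial genes 6 reached 1 CPM, and their summed level was 51.2 and 58.8 CPM in the first run and 8.20 to 13.8 CPM in the second, with CDH1 at 0 in both day-6 libraries. Of 14 genes of astroglia and oligodendroglia 9 reached 1 CPM, with sums of 239 to 248 CPM in the first run and 171 to 281 CPM in the second, most of it from SLC1A2, while GFAP was at 0 to 0.145 CPM and SOX10 at 0 in all 6 libraries. That sum rose in the second run, from 181 and 171 to 281 and 274 CPM, but most members did not follow it. The median log2 ratios of the list were -0.79 and -0.82, and edgeR called 4 higher and 5 lower of 10 tested. Of all genes tested, edgeR called 31.7% higher and 32.3% lower. By the 4-fold rule 1 member was lower in the first run and 1, GJA1, in the second, against 1.22% and 5.02% of all genes at the minimum. Of 13 genes of neural crest and Schwann cells 9 reached 1 CPM, with sums of 266 and 229 CPM in the first run and 694, 683, 318 and 287 CPM in the second, most of it from NGFR. PAX3 of that list was at 10.2 and 0.121 CPM in the first run and fell from 76.4 and 75.7 to 0.0405 and 0.299 CPM in the second (adjusted p = 4.7e-13). Of 18 genes of mesenchyme and matrix 13 reached 1 CPM, with sums of 619 and 568 CPM in the first run and 472, 492, 383 and 356 CPM in the second. The medians of the epithelial, neural crest and mesenchyme lists were -0.22, -0.55 and 0.20 in the first run. In the second they were -0.10, -1.14 and -0.12, and edgeR called 2, 3 and 5 higher and 2, 6 and 6 lower, of 5, 9 and 14 tested. The 3 of 9 and 5 of 14 higher were near the share of 31.7% over all genes. The sums of the neural crest list moved with the second run's fall in cell cycle and progenitor genes, and the part of that list in it was not tested. In the uninduced cultures of the first run, day 11 differed from day 5 by 4-fold in the same direction for 2 of the 59 shared higher genes, 17 of the 111 shared lower genes, 28 of the 307 genes and 9 of the 230 genes assigned to the second run as higher and lower. It differed by 4-fold in the opposite direction for 5, 7, 19 and 5 genes of these groups in the same order. Over all 12039 genes sorted, 211 (1.75%) were 4-fold higher and 248 (2.06%) lower on day 11 than on day 5 of those cultures.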

How the data were processed

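RNA from single wells was sequenced single-end after TruSeq RNA v2 preparation, per the labels' protocols, a kit that does not keep strand. The authors deposited tables of raw counts per gene for each run, for which the submitters' processing notes name Subread, featureCounts 1.5.0 and GRCh38; the annotation release is not given in the sources used here. They also deposited normalized signal values for the first run, on a linear scale, which were used as an alternative. The 16 per-sample columns inside the authors' FGF2 comparison tables were not used; their symbols named genes.

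Counts of the 8 libraries of the second run entered 1 edgeR 4.0.16 fit (R 4.3.3, filterByExpr, TMM, quasi-likelihood, 1 mean per group, two-sided, adjusted p under 0.05 by Benjamini-Hochberg over 20142 genes, of which 20122 matched the first run). The fit was run on simulated data: of 19445 genes simulated for this comparison, it called 91 of 100 changed 4-fold, 76 of 98 changed 2-fold and 9 of 19247 unchanged. The simulation gave every gene the same dispersion and changed few genes, whereas edgeR called 64.0% of genes in the data. Its rates therefore need not hold for this comparison. The first run's 5 libraries were scaled by TMM and compared by size alone. DESeq2 1.42.0 and limma 3.58.1 were alternatives.

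Named genes were the 3 markers, up to 8 genes per group ranked by the smaller change or by the difference between changes, and up to 5 members per list of highest CPM among those that differed; any further gene was chosen with its values in view. The genes and 27 lists were chosen with earlier results of these data known. Some genes that the rule gives are not reported here. Overlaps of exon bases come from the GRCh38 reference annotation.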

Additional observations from a re-analysis of the deposited data

Results flagged for a closer look

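For 6 genes both day-12 libraries of the second run moved one way from both day-6 libraries while the day-11 library of the first run moved the other way from day 5, by over 2-fold in both runs and 4-fold in at least 1. Smaller opposite moves, as for ISLR2, SCG2, RET, SLC17A6 and CBFA2T2, were not counted. The first run has 1 library per day, so the difference between the runs was not tested, and these genes were taken from 12039. The log2 ratio with continued doxycycline minus that with withdrawn doxycycline was -5.04 for PCP4, -4.94 for SST, -4.55 for PENK, -4.12 for ARHGAP36 and -3.93 for PRKG1, all lower late in the first run and higher late in the second. It was 4.03 for C20orf166-AS1, a non-coding gene with 10 and 55 counts on days 5 and 11. On the authors' normalised values the first-run log2 ratio of C20orf166-AS1 was 0.92, under 2-fold. Another gene overlaps 20.1% of the exon bases of PENK, in libraries that do not keep strand.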

How the results depend on the processing

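The direction of single genes was followed for the markers and the genes ranked in the shared and single-run groups. None of their values that was called, or different by size, changed direction under the alternatives run. Other genes were not followed one by one, apart from those with opposite moves. With a 2-fold in place of a 4-fold rule, the second run had 1428 genes higher and 1340 lower. The groups then held 286 shared higher, 358 shared lower, 62 and 123 genes higher and lower assigned to the first run, and 1108 and 874 assigned to the second. On the authors' normalized values the first run had 219 genes lower, and the groups assigned to the first run held 3 higher and 24 lower and that of lower genes in the second run 150. With a minimum of 20 CPM the first run had 91 genes lower, and 72 were shared lower. With a minimum of 1 CPM, 13 lower genes were assigned to the first run. On library totals in place of TMM, the log2 ratio with continued doxycycline was -0.51 for NEUROG2 and -3.33 for NHLH1. The cause of these moves was not tested, except that a lower threshold admits more genes and a higher minimum tests fewer. Without each control library in turn, the second run had 547 to 573 genes higher and 550 to 570 lower by call and size, and 5526 to 5693 higher and 5663 to 5795 lower by edgeR alone; shared genes numbered 58 to 59 higher and 110 to 112 lower, and those assigned to the second run 301 to 327 and 221 to 237. The deviations of same-numbered libraries correlated at 0.0233 between the day-6 and day-12 controls and at 0.0042 to 0.0982 over all pairs of groups, and whether the number marks a line or a culture is not given in the sources used here; with the replicate number as a block edgeR called 13200 genes in the second run, against 12895 without it; DESeq2 called 11896 and limma voom 12817. The sign of the first-run median flipped on the authors' normalized values, an alternative added after seeing the data, for presynaptic, glutamatergic and mesenchyme lists. HS3ST4 was called in the second run, with a log2 ratio of 0.41, but not without the second day-6 library (0.29) or the second day-12 library (0.24); PDIA2 was called without the second day-6 library (0.98) or with the block (0.56), and CYSLTR2 without the second day-12 library (0.65). The small counts of the early EOMES and HPCAL4 libraries limit their ratios.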
